A study of Mus musculus with 12 samples.

Results

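The ADAM genes encode membrane-anchored proteins with a metalloprotease and a disintegrin domain, and they were followed here as a family through the caput epididymidis of wild-type (WT) and Gpx5 knockout (KO) mice. Members were all genes whose name is Adam followed by a number and at most 1 letter, so Adamts genes were left out, and a gene with several transcripts was represented by the one with the highest mean level. The rule gave 32 of 22021 genes, with 40 transcripts, and 6 genes had more than 1 transcript. Their names fell into 19 testis-type genes, 2 epididymal genes (Adam7 and Adam28), 8 widely expressed genes and 3 neural genes (Adam11, Adam22 and Adam23), a grouping taken from background knowledge.

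The study compared C57BL/6 mice with and without Gpx5, the gene of a glutathione peroxidase secreted by the epididymis. Caput transcriptomes were made at 13 months, 1 for WT and 1 for KO (labelled Gpx5-/-). Small RNAs of 18 to 40 nt were sequenced from caput, corpus, cauda and testis of both genotypes at 13 months, and from caput of both genotypes at 2 months. At 13 months each library came from RNA pooled from 7 mice, with no replicate library, and caput and cauda, but not corpus or testis, had been punctured so that spermatozoa could leave. With 1 library per group there is no replicate error, no difference below has a replicate check, and no p-value is given.

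Most ADAM proteins of the male tract are made in germ cells and displayed on sperm. Fertilin is an ADAM1 and ADAM2 pair, ADAM3 is needed for sperm to enter the oviduct and bind the egg coat, and these proteins mature with the help of testis-specific chaperones and enzymes. ADAM7 is made by the epididymal epithelium and passed to sperm, while ADAM10 and ADAM17 are sheddases that release the outer parts of membrane proteins in many cell types. ADAM11, ADAM22 and ADAM23 lack protease activity and are known from neurons.

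Depth was 14348655 reads for the WT transcriptome and 13929327 for the KO one. Gpx5, the targeted gene, had 8474 RPKM (reads scaled to transcript length and library size) in WT against 918 RPKM in KO, so it was 9.23-fold lower in the KO library but still abundant. The small RNA libraries had 3855476 to 29049669 classified reads. Genes of other cell types differed between the 2 caput transcriptomes. All 12 spermatid markers were lower in KO (summed level 10347 RPKM in WT and 161.5 in KO), as were all 9 spermatocyte markers (1148 and 17.7) and all 7 Leydig cell markers (370.4 and 11.9), and none of these markers was at 0 in either library. Of 10 caput principal cell markers 7 were higher in KO and 0 lower (7865 and 17628 RPKM), so caput RNA was present in both libraries. Whether the WT sample also held testis tissue was not tested. In such tissue samples fewer cells of a type and less RNA per cell cannot be told apart.

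The following fragments are shown because members of the testis-type, neural and epididymal groups differed in the libraries that listed them. A line gives 1 of the 2 small RNA sequences of up to 30 nt most often listed under a member, as 5′ to 3′ DNA letters of the sense strand; none of its bases is marked. The Adam2 fragment was also the most abundant ADAM fragment of the sense strand, and those of Adam32 and Adam30 were chosen after their values were seen.

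Adam2, 30 nt: aacacgtgatctaccaagtggaacctgaga
Adam30, 29 nt: actgaaagcgcttgaagtctggacatact
Adam32, 21 nt: ttgtagaatggatgcaggcct
Adam22, first, 30 nt: tccaaggacaactgtacatatgtaaacatt
Adam22, second, 30 nt: taatccaggaaaagtgggatacctctgcct
Adam7, 21 nt: tacccagggtgtagaagctcc

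The Adam2 fragment had 20 reads in WT caput, 0 in KO caput, 75 in WT testis, 64 in KO testis and 3 in WT corpus at 13 months, whatever entry it was listed under, and 0 in the other libraries. The Adam30 fragment had 3 reads in WT caput, 0 in KO caput, 5 in WT testis and 3 in KO testis. Of the Adam22 fragments, the first had 4 reads in KO testis and 0 in every other library, and the second was listed once each in WT caput, WT testis and KO testis, and not in KO caput. The Adam32 fragment had 12 reads in WT caput, 1 in KO caput and 1 in KO corpus. The Adam7 fragment had 5 reads in WT caput and 1 in KO caput, and neither of the last 2 was listed in a testis library.

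Promoter windows of 250 bases ending at the base before the start site were taken from RefSeq (GRCm38.p6, not the mm9 build of the deposited files), where 16 members had at least 1. They are shown for a testis-type gene and a sheddase with few and with many CpG and for a near-identical testis-type pair. Capitals mark each CG.

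Adam1b, chr5:121503436-121503685, minus strand: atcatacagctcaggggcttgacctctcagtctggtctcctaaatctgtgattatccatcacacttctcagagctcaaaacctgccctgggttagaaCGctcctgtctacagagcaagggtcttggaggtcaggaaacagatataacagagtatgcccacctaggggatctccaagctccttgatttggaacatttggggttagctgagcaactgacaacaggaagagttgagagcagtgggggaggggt
Adam17, chr12:21373633-21373882, minus strand: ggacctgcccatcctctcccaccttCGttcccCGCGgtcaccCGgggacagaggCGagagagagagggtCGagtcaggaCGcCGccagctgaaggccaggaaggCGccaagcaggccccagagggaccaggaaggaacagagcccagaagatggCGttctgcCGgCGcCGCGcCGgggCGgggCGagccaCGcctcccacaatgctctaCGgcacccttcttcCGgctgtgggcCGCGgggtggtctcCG
Adam6a, chr12:113543658-113543907, plus strand: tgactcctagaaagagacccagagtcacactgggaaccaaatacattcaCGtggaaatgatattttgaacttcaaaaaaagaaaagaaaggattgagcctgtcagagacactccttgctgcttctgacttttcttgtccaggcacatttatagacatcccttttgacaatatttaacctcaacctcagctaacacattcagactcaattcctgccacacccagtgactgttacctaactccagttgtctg
Adam6b, chr12:113489315-113489564, plus strand: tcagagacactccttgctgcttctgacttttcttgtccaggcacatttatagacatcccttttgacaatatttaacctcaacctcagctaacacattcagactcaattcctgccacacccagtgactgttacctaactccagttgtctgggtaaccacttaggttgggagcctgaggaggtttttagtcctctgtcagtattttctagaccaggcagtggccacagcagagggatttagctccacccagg

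The Adam1b window held 1 CpG and the Adam17 window 23. Bases 102 to 250 of the Adam6a window and bases 1 to 149 of the Adam6b window were the same 149 bases, so the sequence shared by this pair includes the region upstream of their start sites.

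Across the family, 28 members reached 1 RPKM in either library and were compared on log2(RPKM + 1), KO minus WT, which makes differences of weakly expressed genes look smaller than their ratios. A gene was called lower or higher at a difference of 1, which is about 2-fold. Of these 28, 19 were lower in KO, where 22.1% of the 15000 genes compared were lower, and 2 were higher, where 2.77% were. The family median was -3.59, beside 0.05 over all genes. The split followed the groups: 19 of 19 testis-type members were lower and both epididymal members were higher. None of the 6 widely expressed members and not the 1 neural member compared was called either way. Members and lists were chosen with earlier results of these data known, so this match is a description alone. The remaining 4, Adam11, Adam12, Adam19 and Adam23, were between 0.215 and 0.699 RPKM in both libraries. In the authors' deposited table the GFOLD value, a log2 change shrunken for low counts, was -1 or less in 19 members and 1 or more in 2, where 15.1% and 1.07% of its 28344 transcripts were.

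**Figure D1:**
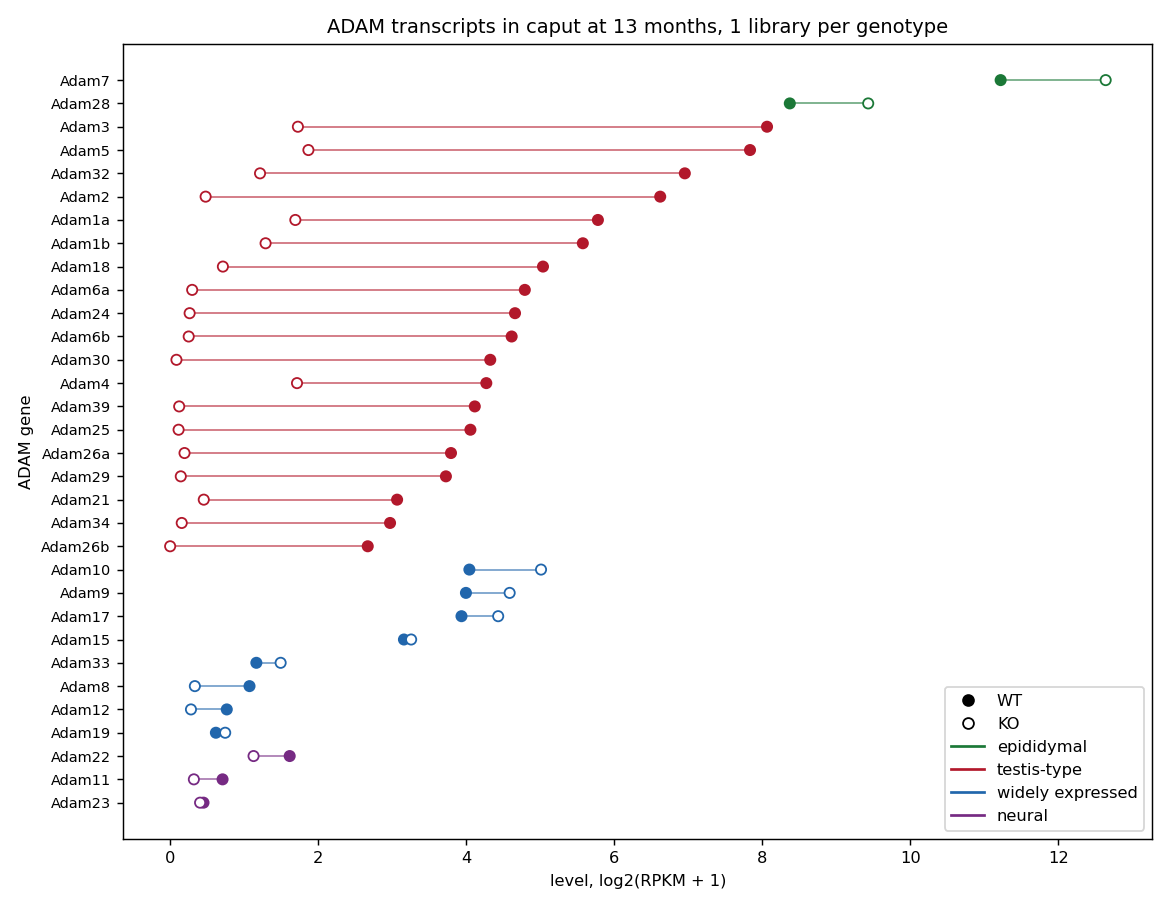
Level of each of the 32 ADAM genes in the WT (filled) and KO (open) caput transcriptome at 13 months, as log2(RPKM + 1), coloured by group. The testis-type genes sit left in KO, Adam7 and Adam28 sit right, and Adam10, Adam9 and Adam17 sit slightly right.

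Adam7 (NM_007402) was by far the most abundant member, at 2383 RPKM in WT and 6373 in KO. It was 2.67-fold higher in the KO library, a difference of 1.42, and the authors' deposited table gave a log2 fold change of 1.49. Adam28 (NM_183366), the second epididymal member, was at 330 RPKM in WT against 689 in KO, 2.09-fold higher (difference 1.06). The other 2 Adam28 transcripts were at 299 and 273 RPKM in WT and 624 and 570 in KO, and all 3 had the same difference of 1.06. Per length, Adam28 was at 13.9% of the Adam7 level in WT and at 10.8% in KO. The caput principal cell markers had a median difference of 1.12 in the same libraries, and centred on it Adam7 was at 0.30 and Adam28 at -0.06, so neither was called and Adam28 changed sign. Whether epithelial RNA made up a larger share of the KO library was not tested.

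With these differences the makeup of ADAM RNA shifted. Summed over the family, levels were 3807 RPKM in WT and 7164 in KO. Adam7 held 62.6% of that sum in WT and 88.9% in KO, and the testis-type members held 27.2% and 0.207%.

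The testis-type members added up to 1035 RPKM in WT and 14.8 in KO, and the median difference of the 19 was -4.24, from -6.34 to -2.56. All 19 were at least 8-fold lower by RPKM and 16 at least 32-fold, and the median member kept 0.866% of its WT level. In KO 6 of them were at 1 RPKM or more and 13 below it. The differences rest on 185 to 10356 recovered reads per member in WT. Ratios below carry exact 95% intervals from these reads, which cover counting error only.

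The most abundant of them were Adam3, Adam5, Adam32 and Adam2. Adam3 (NM_009619), the sperm migration and binding protein also called cyritestin, was at 266.5 RPKM in WT and 2.31 in KO, or 10356 and 87 reads, and thus 115-fold lower (93.6 to 144). Adam5, its neighbour in the genome, was at 227 and 2.65 RPKM and 85.7-fold lower (70.6 to 105). Adam32 was at 122.9 and 1.32 RPKM and 93.1-fold lower (69.4 to 127.8). Adam2 (NM_009618), the fertilin beta subunit, was at 97.4 and 0.394 RPKM, or 3564 and 14 reads, and 247-fold lower (147 to 453). Its interval lies above those of all 3 other genes, so these 4 genes did not share 1 ratio within counting error.

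The fertilin alpha genes differed from Adam2 in the remaining level. Adam1a was at 53.9 RPKM in WT and 2.23 in KO (24.2-fold lower, 19.7 to 29.98), and Adam1b, the subunit found on sperm, was at 46.7 and 1.44 (32.3-fold lower, 24.9 to 42.7). The KO level of Adam1a was therefore above that of Adam2, where in WT Adam2 was the more abundant. Adam18 was at 31.8 and 0.639 RPKM. Reads of near-identical copies such as Adam6a and Adam6b, or Adam26a and Adam26b, may have been split between them, and how they were counted is not given in the sources used here. Adam6a was at 26.7 and 0.229 RPKM and Adam6b at 23.5 and 0.190.

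Adam4 was the member that kept the most. It was at 18.3 RPKM in WT and 2.28 in KO, or 612 and 74 reads, and 8.03-fold lower (6.30 to 10.4). This level in KO was the third highest of the testis-type group, although 11 members were above it in WT. Adam21 was next, at 7.37 and 0.370 RPKM and 19.9-fold lower (11.9 to 36.1). The interval of Adam4 lies below that of Adam21 and of each other testis-type member whose interval is given here, while that of Adam21 overlaps those of Adam1a and Adam1b.

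The remaining testis-type members were at 0.200 RPKM or less in KO. Adam24, also called testase 1, was at 24.3 RPKM in WT and 0.200 in KO, Adam25 at 15.6 and 0.0822, and Adam39 at 16.3 and 0.0882. Adam30 was at 19.0 and 0.0608, or 645 and 2 reads, a ratio of 313 with an interval of 86.3 to 2591. Adam26a was at 12.9 and 0.144 RPKM, Adam29 at 12.2 and 0.105, and Adam34 at 6.84 and 0.115. Adam26b was at 5.36 RPKM (185 reads) in WT and 0 in KO, which makes it at least 59.9-fold lower when the KO library is set to the floor of 3 counts. On the log2(RPKM + 1) scale these low genes appear less changed than Adam3 (Adam26b at -2.67, Adam3 at -6.34), although their ratios were of the same order or larger.

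The sheddases had small positive differences. Adam10 (NM_007399) was at 15.5 RPKM in WT and 31.2 in KO, a difference of 0.97 just under the call and a ratio of 2.02 (1.87 to 2.18). Adam17 was at 14.3 and 20.6 RPKM (0.50; ratio 1.44, 1.32 to 1.57) and Adam9 at 15.0 and 23.0 (0.59; ratio 1.54, 1.41 to 1.68). Adam15 was at 7.93 and 8.55 RPKM, with a ratio whose interval of 0.923 to 1.26 includes 1. In WT the levels of Adam10, Adam9 and Adam17 were close, and in KO Adam10 was the highest. Adam33 was at 1.24 and 1.81 RPKM. Adam8, known from leukocytes, was the only widely expressed member compared that was below its WT level. It was at 1.103 and 0.260 RPKM or 48 and 11 reads (4.24-fold lower, 2.17 to 9.05). The 7 macrophage markers compared had a median of 0.26 and none was called. Among widely expressed members too low to compare, Adam12 was at 0.699 and 0.215 RPKM or 77 and 23 reads (3.25-fold lower, 2.02 to 5.43). Adam19 was at 0.535 and 0.674 RPKM, the other direction. The median of the 6 widely expressed members compared was 0.41, and -0.71 when centred on the caput principal cell markers. There Adam9, Adam10, Adam15, Adam17 and Adam33 changed sign. Adam22, the 1 neural member compared, was at 2.06 and 1.18 RPKM or 79 and 44 reads (ratio 0.574, 0.387 to 0.840). Of the nerve markers 3 were compared and 1 was lower, Tubb3, at 9.10 RPKM in WT and 0 in KO. The 7 nerve markers added up to 14.3 RPKM in WT and 3.81 in KO, with 1 at 0 in WT and 2 in KO, and their part in the Adam22 value was not tested.

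**Figure D2:**
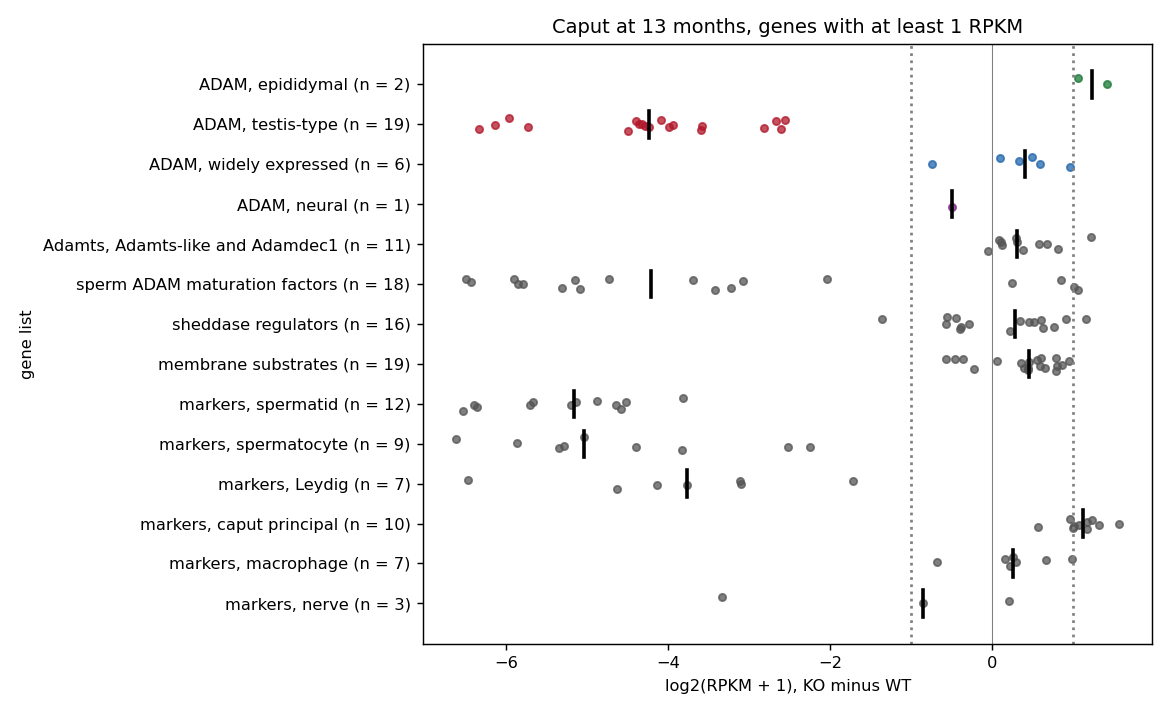
Difference in log2(RPKM + 1), KO minus WT, of each gene that reached 1 RPKM in either caput transcriptome at 13 months, by list, with 1 point per gene (spread vertically at random) and a bar at the median. The testis-type ADAM genes, at -6.34 to -2.56, lie within the range of the spermatocyte markers, -6.62 to -2.24, and of the Leydig markers, -6.48 to -1.72. The spermatid markers, at -6.54 to -3.82, do not span them.

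The markers of later germ cells were lower together with the testis-type members in these libraries, with medians of -5.17 for spermatids and -5.04 for spermatocytes, and the Leydig markers had -3.77. The 6 spermatogonium markers were mixed, with a median of -0.54, 2 lower and 1 higher. Dazl was at 31.9 RPKM in WT and 0.220 in KO and Stra8 at 1.44 and 0, while Gfra1 was at 66.4 and 144. Uchl1 (-0.95), Kit (0.01) and Zbtb16 (-0.13) were not called. Whether remaining germ cells set the ADAM levels was not tested.

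Genes listed from background knowledge for the maturation of sperm ADAM proteins also went both ways. Whether each is needed, such as Dcst1, Lyzl4 and Tmem95 among the lower ones, was not checked. Of the 18 genes listed, all of them compared, 14 were lower in KO, 2 higher and 2 neither, with a median of -4.21. Cmtm2a was at 281.6 RPKM in WT and 2.25 in KO and Lypd4 at 173 and 0.918. Rnase10, an epididymal secreted protein needed for ADAM3 on sperm, was at 1026 and 2148 RPKM (1.07). Ace, which has both a somatic and a germ cell form, was at 76.9 and 91.2 (0.24), and the RPKM value does not separate the forms. The second one called higher was Tpst2 (1.01), a sulfotransferase that acts on secreted and membrane proteins.

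Regulators and substrates of the sheddases were mostly not called. Of 16 regulators compared 1 was higher, 1 lower (Frmd8, -1.36) and 14 neither, with a median of 0.29. Tspan15, a tetraspanin partner of ADAM10, was at 19.5 and 44.8 RPKM (1.16), and Tspan14, also an ADAM10 partner, at 18.2 and 35.2 (0.91). Timp2, a metalloprotease inhibitor, was at 22.6 and 14.9 RPKM (-0.57), and the proprotein convertase Pcsk5 at 10.8 and 19.1 (0.77). None of 19 membrane substrates was called, and their median was 0.46. Among them Prnp was at 54.3 and 99.8 RPKM (0.87), App at 41.8 and 54.1 (0.36), Sdc1 at 34.4 and 60.02 (0.79) and Alcam at 15.8 and 31.3 (0.95). The Adamts and Adamts-like genes with Adamdec1 had 11 compared, a median of 0.31 and 1 called, Adamdec1 (3.73 and 10.1 RPKM, 1.23), and Adamts9 was at 4.95 and 9.44 RPKM (0.81).

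Many members lie next to each other, so the differences were also read in RefSeq gene order among protein-coding genes. Adam7, Adamdec1 and Adam28 are consecutive and were at 1.42, 1.23 and 1.06. Adam18, Adam3, Adam5, Adam32 and Adam9 are also consecutive, with differences of -4.32, -6.34, -5.97, -5.74 and 0.59. The direction thus changed within this run, between the germ cell gene Adam32 and the widely expressed Adam9. Both genes of the pair Adam1b and Adam1a were lower, as were both of Adam6b and Adam6a. The runs of Adam24, Adam25, Adam20 and Adam39 and of Adam26b, Adam26a, Adam34l and Adam34 also held lower genes alone, although Adam20 and Adam34l carry other names in the deposited table and are not members.

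**Figure D3:**
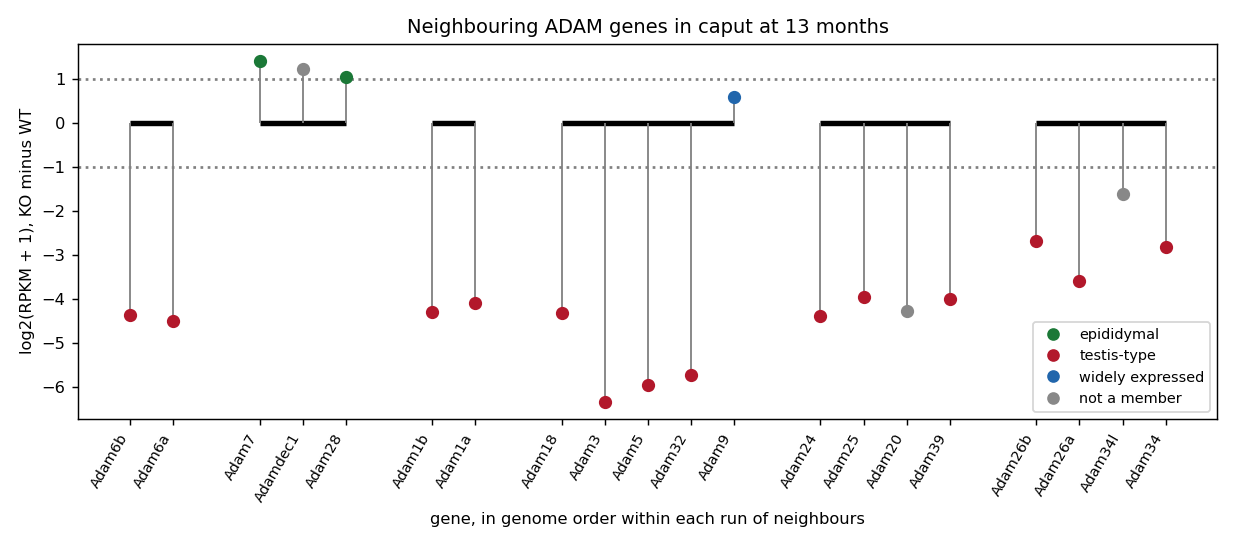
Difference in log2(RPKM + 1), KO minus WT, in caput at 13 months for runs of neighbouring ADAM genes (black bars), in genome order and not to distance; dotted lines mark the call at 1 and -1. The Adam7 run lies above 0, Adam9 lies above 0 at the end of a run that otherwise lies below -4, and the other runs lie below -1.

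The upstream windows also divided by group among the 16 members with one, a look taken after the expression values were seen. Neither epididymal gene had a window, nor did the most abundant testis-type members, Adam3, Adam5, Adam32 and Adam2. For a gene with several windows the one with most CpG was used. Adam19 had windows with 4, 5 and 7 CpG, and the one with 4 lay within the testis-type range. The 9 testis-type windows held 0 to 4 CpG with a median of 1, and the median GC content was 39.6%. For the 5 widely expressed genes with a window the median was 18 CpG (6 to 29) and 62.0% GC, with Adam10 at 29, and Adam22 and Adam23 held 17 and 27. Over all 32851 RefSeq windows of this length the median was 6 CpG (quartiles 2 and 16) and 52.4% GC, and 44.4% held 4 or fewer. Read on both strands, the letters TGACGTCA of the cAMP response element were in 0 of the 9 testis-type windows and in 1.55% of all windows. The TATA box letters TATAAA were in 3 of 9 (12.4% of all windows), AGAACA, an androgen response half-site, in 3 of 9 (16.1%), and GGAAGT, an ETS core, in 2 of 9 (19.7%). A match is a description of these letters alone, and Adam6a and Adam6b share most of their window and are not separate cases.

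**Figure D4:**
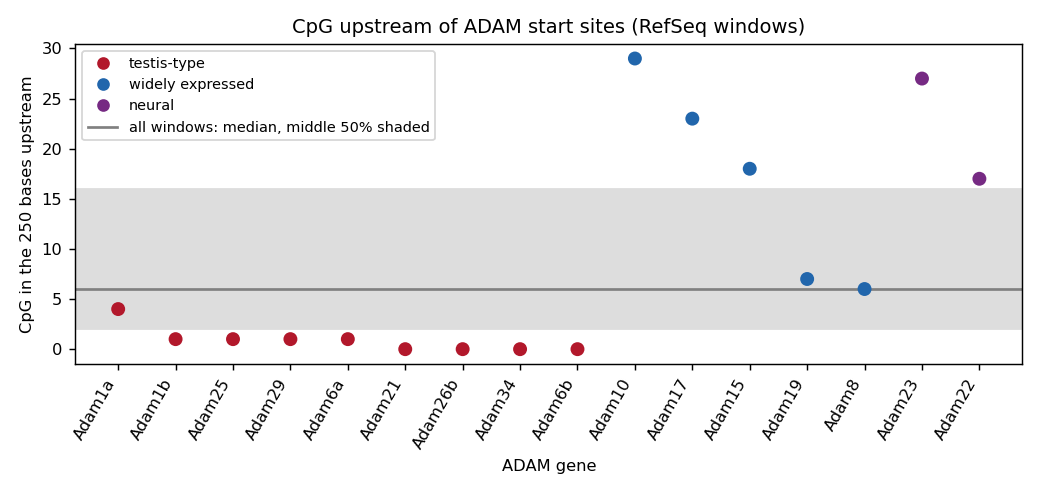
Number of CpG in the 250 bases upstream of the start site for the 16 ADAM genes with a RefSeq window (for a gene with several windows the one with most CpG), with the median and the middle 50% of all windows in grey. The testis-type genes lie at 0 to 4 and the others at 6 to 29.

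Small RNA reads listed under a RefSeq mRNA of a member gave a second readout, which the choice of members did not use. Over the 10 libraries 27 members had 1522 such reads in 1181 distinct sequences, and 5 testis-type members had none. Values are in RPM, read counts scaled to the number of classified reads in each library. In caput at 13 months the family had 519 reads in WT and 263 in KO on both strands, or 37.5 and 14.3 RPM, 2.62-fold lower in KO (2.26 to 3.05). The base matters for this direction: all mRNA-class reads made up 3.45% of classified reads in WT and 0.844% in KO, and per mRNA-class read the KO over WT ratio of the family was 1.56 (1.34 to 1.81). In the other 13-month pairs reads of both strands were at 5.16 RPM in WT and 3.47 in KO corpus, at 10.04 and 9.26 in cauda and at 16.5 and 14.3 in testis. Of the 150 reads in WT corpus 86 were antisense reads of Adam9, which had 0 in KO corpus under its RefSeq entry. Sense reads alone were at 1.58 and 2.51 RPM in corpus, the opposite direction, at 8.28 and 7.07 in cauda and at 14.5 and 11.8 in testis, and the intervals of all these ratios include 1. At 2 months caput had 1 sense read in WT and 5 in KO. Those libraries held only 3671 (WT) and 8202 (KO) mRNA-class reads, against 476638 in WT caput at 13 months. Their counts are too low to read as a difference with age.

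Adam7 had more of these reads than any other member, with 725 on the sense strand in 636 distinct sequences, and none of its sequences had more than 5 reads in a library. In caput at 13 months Adam7 had 362 sense reads in WT and 202 in KO, or 26.2 RPM (23.6 to 29.0) and 11.0 (9.54 to 12.6). Per classified read it was 2.38-fold lower in KO (2.00 to 2.84), while its mRNA was 2.67-fold higher. Per mRNA-class read it was 1.72-fold higher (1.44 to 2.04), so the direction of the Adam7 fragments depends on the base. In cauda it was at 5.78 RPM in WT and 3.67 in KO (ratio 0.634, 0.430 to 0.921), and in corpus at 0.482 and 0.718, on 14 and 6 reads. Both testis libraries had 0 sense reads of Adam7, and 3 counts, the floor used here, would be 0.350 RPM for WT testis and 0.305 for KO testis. Along the tract at 13 months the fragments were thus most abundant in caput and above corpus in cauda in both genotypes. In caput at 2 months Adam7 had 1 sense read in WT and 3 in KO (0.259 and 0.391 RPM).

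In caput at 13 months testis-type fragments were lower in KO on both bases. They had 61 sense reads in WT and 4 in KO, or 4.41 and 0.218 RPM, which is 20.3-fold lower (7.52 to 76.7), and 4.96-fold lower per mRNA-class read (1.84 to 18.8). In testis they were at 8.05 RPM in WT and 6.00 in KO, where the interval of the ratio, 0.517 to 1.07, includes 1. In corpus they were at 0.344 RPM in WT and 0.957 in KO, the opposite direction, on 10 and 8 reads, and in cauda at 0.365 and 0.437, on 6 and 5. Both 2-month caput libraries had none among their few mRNA-class reads, given above. Of the WT caput reads 24 were from Adam2 and 16 from Adam32, with 0 of either under its RefSeq entry in KO caput. With KO at the floor of 3 counts Adam2 was at least 10.6-fold and Adam32 at least 7.08-fold lower per classified read, and at least 2.60-fold and 1.73-fold per mRNA-class read. With 20 of the Adam2 reads being 1 sequence, the count of WT caput rests in large part on few fragments. The Adam32 fragment shown above had 12 reads in WT caput under any entry and 0 in either testis library. Its 1 read in KO caput was listed under another entry. In testis Adam2 had 21 and 11 sense reads under its RefSeq entry and 107 and 88 when its sequences were counted under any entry.

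Adam22, a gene at 2.06 RPKM or less in the caput transcriptomes, was the second member by sense reads, with 107. It had 25 in WT caput, 0 in KO caput, 32 in WT testis and 44 in KO testis at 13 months, and at most 4 in each other library. It was thus at least 11.1-fold lower in KO caput per classified read and at least 2.71-fold per mRNA-class read. In WT caput 21 of the 25 reads measured 24 to 32 nt and 18 started with T. In WT testis these were 27 and 25 of 32, and in KO testis 38 and 29 of 44. Such a length and first base are those known of piRNAs, the small RNAs of the germ line. They were not particular to Adam22 in testis. Of the widely expressed sense reads in WT testis 71.4% had this length and 57.1% a first T, on 14 reads. In KO testis both shares were 66.7%, on 12 reads. The shares over all reads of these libraries were not computed. Of 24 distinct Adam22 sequences in WT caput, 3 were also listed in a testis library. The same held for 4 of 30 testis-type, 0 of 33 widely expressed and 0 of 328 Adam7 sequences. The share over all sequences of that library was not computed, so these counts are not read as a trait of the members.

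Lengths of 24 to 32 nt made up 65.6% of testis-type sense reads in WT caput, 88.4% in WT testis and 71.2% in KO testis, and a first T 42.6%, 40.6% and 35.6%. The WT caput shares moved with the choice of members. Without Adam2 they were 43.2% for length and 67.6% for a first T, on 37 reads, and without Adam32 they were 82.2% and 22.2%, on 45 reads, and without both they were 61.9% and 42.9%, on 21 reads. Epididymal fragments had 46.7% in that length range in WT caput and 44.2% in KO caput, and 21.9% and 18.8% began with T. Adam7 fragments, which make up nearly all of these, were thus less often of this length and first base than those of Adam22, though reads of 1 library are not replicates and the gap has no test. Widely expressed members had 33 sense reads in WT and 18 in KO caput, each WT read a distinct sequence, and Adam10 alone had 14 and 12.

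**Figure D5:**
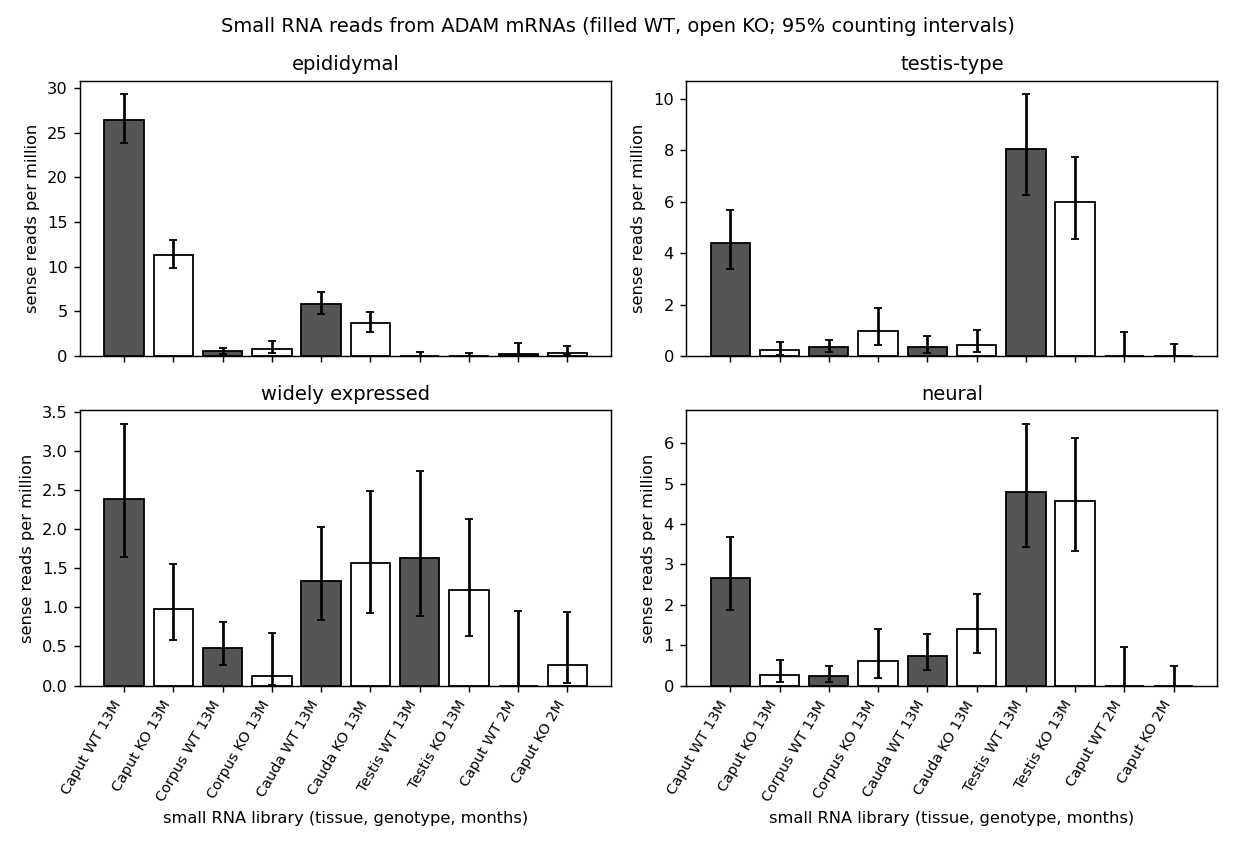
Sense small RNA reads of each ADAM group in RPM in the 10 libraries (filled WT, open KO; 13M and 2M are months), with exact 95% Poisson intervals that cover counting error only. Epididymal fragments are highest in caput at 13 months and at 0 in testis, and testis-type fragments are high in testis of both genotypes and in WT caput but not in KO caput.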

How the data were processed

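The authors' deposited table gives RPKM per RefSeq transcript, log2 fold changes and GFOLD values, made with GFOLD 1.1.3 per the file headers, and an E-FDR column (a false discovery rate, thus a q-value and no raw p-value), which is 1 throughout. Per the submitters' processing notes, TopHat2, Bowtie 0.12.7 and the mm9 build were used, with no roles given. The deposited small RNA files list each distinct sequence with its read count and matched entry (up to 2 mismatches), per the file headers. In the 2-month files 5531 (WT) and 5419 (KO) counts that had become dates were read back from the month.

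Genes reaching 1 RPKM in either library were compared on log2(RPKM + 1) over the whole table, and called at 1 or -1. Read numbers were worked back from the pair of RPKM values and the authors' fold change (whole within 0.1 reads for 99.7% of 4615 low transcripts), for 30 members but not Adam7 and Adam28. No count test was run, since each group is 1 library. Ratios have exact conditional binomial and single values exact Poisson intervals at 95%. Sequencing reads are not independent molecules. Scripts were tested on simulated data (Python 3.11.15, numpy 2.4.6, pandas 2.3.3, scipy 1.17.1).

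Sense reads are plus-strand sequences listed under a member's RefSeq entry in the mRNA class. All 32 member accessions were found in the RefSeq gene table, which gave names and gene order.

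Members and lists were chosen with earlier results of these data known. All members compared were named, up to 4 genes per other list by mean RPKM, and small RNA sequences were to come from the 6 members with the most such reads (Adam7, Adam9, Adam22, Adam10, Adam2 and Adam23). Of these, sequences of Adam2, Adam7 and Adam22 are printed, and those of Adam30 and Adam32 were added after their values were seen. Frmd8, Tpst2, Adamdec1, Dcst1, Lyzl4, Tmem95, Stra8 and Zbtb16 were named after their values were seen. Marker lists not given in the report had these counts of lower and higher genes among those compared: Sertoli 4 and 0 of 6, basal 0 and 0 of 5, clear 0 and 1 of 5, lymphocyte 0 and 0 of 2, smooth muscle 0 and 0 of 5, endothelial 0 and 0 of 4, fibroblast 0 and 0 of 5, and erythroid 0 and 2 of 3. Alternatives covered pseudocounts of 0.1 and 5, filters, centring, transcripts and the counting of small RNAs. The mRNA-class base, any-entry counting and leaving out Adam7, Adam2 or Adam32 were added after seeing the data.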

Additional observations from a re-analysis of the deposited data

Results flagged for a closer look

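Antisense reads of Adam9 differed in opposite directions in 2 tissues, a difference between tissues that was not tested. Corpus had 86 in WT and 0 in KO at 13 months, while testis had 2 in WT and 11 in KO. Most were 1 sequence, given as read.

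Adam9 antisense, 20 nt: aattcctgccaatctagcca

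It had 83 reads in WT corpus, 11 in KO testis and 8 in WT cauda under Adam9. Counted under any entry, the Adam9 antisense sequences had 202 reads (6.95 RPM) in WT corpus and 43 (5.15 RPM) in KO corpus, and 43 (5.02 RPM) in WT testis and 15 (1.53 RPM) in KO testis, so the testis direction turned and the corpus gap narrowed.

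Antisense reads of all members, which the comparisons above did not use apart from the family total, were above the level that a count of 0 allows in each 13-month library. There were 22 in WT and 28 in KO caput, 104 and 8 in corpus, 29 and 25 in cauda, and 17 and 25 in testis. Adam9 made up 86 and 0 of those in corpus.

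Genes listed under other names were left out by the rule. The gene 4930529F22Rik, Adam20 in RefSeq, was at 21.7 RPKM in WT and 0.166 in KO, a log2 difference of -4.28. Gm5346, Adam34l in RefSeq, was at 2.05 RPKM (65 reads) in WT and 0 in KO, a log2 difference of -1.61. With KO set to the floor of 3 counts it was 21.03-fold lower.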

How the results depend on the processing

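The counts of 19 lower and 2 higher members were 20 and 3 with a pseudocount of 0.1, where Adam8 and Adam10 passed the call, and 22 and 0 when centred on the caput principal cell markers (centre 1.12), where Adam28 reversed to -0.0635. That centring moved the whole table to 8078 lower and 8 higher genes. With a pseudocount of 5, both filters, centring on all genes and transcript means the counts were 19 and 2. Over all genes, a pseudocount of 5 took the lower calls from 3321 to 2073 and the higher ones from 415 to 190, and a pseudocount of 0.1 took the higher ones to 698. The testis-type median of -4.24 was -6.34 with a pseudocount of 0.1, -2.46 with 5 and -5.36 under that centring, as these settings do by construction. The small RNA log2 ratio of caput at 13 months, -1.39, was -1.88 per miRNA read, -1.66 for reads of 24 to 32 nt and -1.77 without Adam7. It turned to 0.69 as a share of distinct sequences, for which the cause was not tested. It was 0.64 per mRNA-class read, a class that was itself 4.08-fold lower in KO. Reads without a mismatch, plus-strand reads and any-entry counting gave -1.37, -1.49 and -1.39. No paired analysis was possible because each group is 1 library. Depth limits members with few KO reads: Adam30 had 2 and Adam26b 0.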
